A study of Mus musculus with 6 samples.

Results

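The Hox cluster genes are the homeobox genes of the HoxA, HoxB, HoxC and HoxD clusters. They were taken by their symbol (Hox, a cluster letter from a to d and a number) from the 39017 genes counted by polyA RNA-Seq, which gave 38 genes, of which 11 lie in HoxA, 10 in HoxB, 9 in HoxC and 8 in HoxD. All 6 libraries came from V6.5 mouse embryonic stem cells (mESCs), which were grown on irradiated embryonic fibroblast feeders with serum and LIF. The methods place the harvest after passages of these feeders and do not say how many feeder cells remained. In the Pol II degron line, a homozygous clone, the endogenous RPB1 protein, the largest subunit of Pol II, carries the mAID-GFP tag at its C terminus, and OsTIR1, the plant F-box protein that marks mAID fusions for degradation when auxin is present, is expressed from the Rosa26 locus under doxycycline. Untreated cells (2 libraries) received 1 μg/ml doxycycline for 12 h and no auxin, and auxin-treated cells (2 libraries) received the same doxycycline and then 500 μM indole-3-acetic acid (auxin) for 6 h. Wild-type cells (2 libraries) are V6.5 cells with untagged Pol II, and whether they received doxycycline is not given in the sources used here.

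Hox proteins are transcription factors that give cells their position along the body axis. Within each cluster the genes stand in the order in which they are used along that axis, with low-numbered genes at the anterior end and group 13 at the posterior end, and genes of equal number in different clusters are paralogs. In mESCs the clusters are known as large Polycomb domains whose promoters carry both active and repressive histone marks, so that transcription is low until retinoic acid, Wnt or FGF signals and the Cdx factors open them in turn. Hox proteins bind DNA together with TALE homeodomain cofactors of the Pbx, Meis and Pknox families.

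The clusters lie at chr6:52155590-52260880 (HoxA), chr11:96194316-96368256 (HoxB), chr15:102921103-103036852 (HoxC) and chr2:74668310-74765142 (HoxD) in the mm10 genome. RefSeq start-site windows of GRCm38.p6, the NCBI assembly behind mm10, covered 21 of the 38 genes with 23 windows of 300 bases, from 250 bases before to 50 bases after the start. The sequence CG, which reads the same on both strands, occurred at a median of 15 times in these Hox windows and of 7 times in all 32851 windows. At least 9 CG were found in 20 of the 23 Hox windows, or 87.0%, against 45.8% of all windows. The 250 bases before the start are given for 5 genes whose upstream stretch holds no annotated exon. They span the range from Hoxa2, called in both comparisons below, to Hoxd13, which had one of the smallest called differences. Capitals mark each CG.
Hoxa2, chr6:52164832-52165081, minus strand: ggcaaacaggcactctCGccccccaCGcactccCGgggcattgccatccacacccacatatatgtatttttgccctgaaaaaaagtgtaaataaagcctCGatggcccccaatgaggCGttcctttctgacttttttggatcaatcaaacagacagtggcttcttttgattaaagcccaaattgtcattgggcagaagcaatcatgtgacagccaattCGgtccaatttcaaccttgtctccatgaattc
Hoxa5, chr6:52204588-52204837, minus strand: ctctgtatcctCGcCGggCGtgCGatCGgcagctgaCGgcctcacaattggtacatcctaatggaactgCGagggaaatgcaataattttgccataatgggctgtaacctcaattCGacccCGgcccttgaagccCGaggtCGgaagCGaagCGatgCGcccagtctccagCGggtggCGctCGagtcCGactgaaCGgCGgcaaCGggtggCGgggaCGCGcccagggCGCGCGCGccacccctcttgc
Hoxb4, chr11:96318017-96318266, plus strand: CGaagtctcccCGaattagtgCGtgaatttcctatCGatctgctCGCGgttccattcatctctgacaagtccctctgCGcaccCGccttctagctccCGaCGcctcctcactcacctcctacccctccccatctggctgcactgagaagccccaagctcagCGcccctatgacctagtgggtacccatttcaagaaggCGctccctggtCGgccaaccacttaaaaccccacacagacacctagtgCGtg
Hoxd8, chr2:74704365-74704614, plus strand: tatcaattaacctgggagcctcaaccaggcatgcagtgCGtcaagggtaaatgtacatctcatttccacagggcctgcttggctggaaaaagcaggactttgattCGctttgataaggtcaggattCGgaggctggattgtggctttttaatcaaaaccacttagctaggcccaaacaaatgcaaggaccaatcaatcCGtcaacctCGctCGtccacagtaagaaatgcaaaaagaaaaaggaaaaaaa
Hoxd13, chr2:74667975-74668224, plus strand: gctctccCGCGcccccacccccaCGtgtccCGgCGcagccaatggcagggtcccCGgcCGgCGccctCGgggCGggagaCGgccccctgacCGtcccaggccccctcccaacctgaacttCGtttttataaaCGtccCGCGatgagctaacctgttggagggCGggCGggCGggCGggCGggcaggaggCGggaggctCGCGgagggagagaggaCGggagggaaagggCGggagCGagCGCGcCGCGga
The Hoxa2 and Hoxd8 stretches held 6 CG each, the Hoxb4 stretch 14, the Hoxa5 stretch 28 and the Hoxd13 stretch 31. Over the whole 300-base window, Hoxd13 held 37 CG, a number that 5.58% of all windows reached, and Hoxd8 held 6, which 56.4% reached. CG content and the size of the wild-type difference did not run in one order. Hoxa2 with 9 CG and Hoxa3 with 20 both had large differences, and Hoxd8 with 6 and Hoxd9 with 20 had nearly equal ones, as the values below show.

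**Figure D1:**
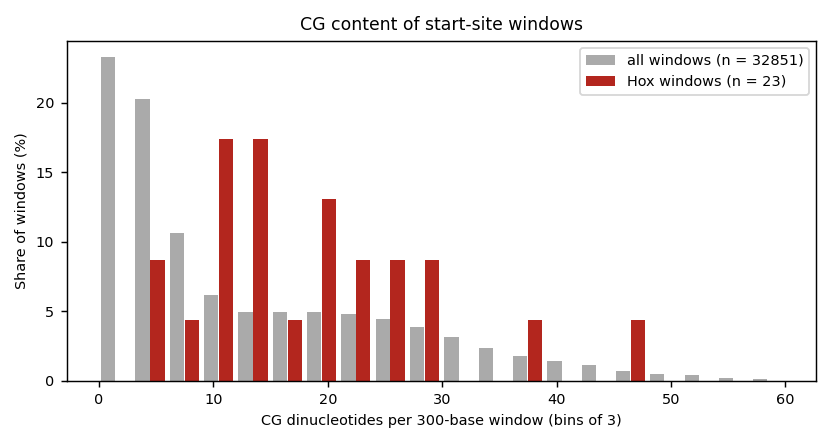
Number of CG dinucleotides per 300-base start-site window (x axis, bins of 3) against the share of windows in percent (y axis), for all 32851 windows in grey and for the 23 Hox windows in red. The Hox windows ran from 4 to 45 CG with a median of 15, and the median of all windows was 7.

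Between 14094022 and 15358714 reads were counted on genes per library. Polr2a, which encodes the tagged RPB1, was present in every library, at 449 to 470 counts per 1000000 of the library total (CPM) in untreated, 677 to 704 CPM in auxin-treated and 465 to 479 CPM in wild-type libraries. The degron removes protein and leaves mRNA, so Polr2a counts are no check of the depletion. Pou5f1, a defining pluripotency factor, had between 10625 and 13854 counts in all 6 libraries. Although retinas are mentioned where RNA extraction of the wild-type samples is described, the photoreceptor genes Rcvrn and Crx had 0 counts in every library and the 12 retina markers together gave 8.74 to 9.34 CPM in wild-type and 7.10 to 8.78 CPM in the other libraries. Feeder fibroblast markers were counted in every library, with 915 to 1380 counts of Col1a1, although Dcn, Lum and Fap had at most 4 counts in any library. The 19 feeder markers together gave 350 to 988 CPM. The 13 mitochondrial mRNAs stood at 15003 and 15298 CPM in wild-type libraries, against 3415 to 4410 CPM in the degron libraries. The tables of the degron line and of wild-type cells were deposited separately, so that line, tag, doxycycline and table cannot be told apart in the comparison of wild-type with untreated cells. The labels do not say whether libraries of a group came from separate cultures, so all p-values measure the spread between these libraries only.

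Hox mRNAs were scarce but detected in every group. The 38 genes together gave 1149 and 1131 counts in untreated, 1364 and 1388 in auxin-treated and 387 and 371 in wild-type libraries. That is 79.5 ± 2.94 CPM (SD, n = 2) in untreated, 90.2 ± 2.0 in auxin-treated and 25.6 ± 0.88 in wild-type cells, less for the whole family than for Polr2a alone. At least 1 read was counted for 36 genes in each untreated library, for all 38 in each auxin-treated library and for 31 and 30 in the wild-type libraries. Wild-type libraries had 10 or more counts for 9 and 11 of the genes, and untreated libraries for 25 and 22. In bulk RNA a larger share of cells with Hox mRNA and more Hox mRNA per cell give the same counts and cannot be told apart.

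Levels between genes were compared per length, as CPM divided by the annotated exonic length in kb (RPKM). In untreated cells Hoxc13, which acts in hair and nail, stood at 4.45 ± 0.47 RPKM (SD, n = 2). Lower levels were those of Hoxb9 at 2.22 ± 0.06, Hoxb4 at 1.86 ± 0.11, Hoxd8 at 1.80 ± 0.12, Hoxc12 at 1.78 ± 0.77, Hoxd9 at 1.73 ± 0.23, Hoxd1 at 1.55 ± 0.07, Hoxd13 at 1.42 ± 0.25, Hoxc4 at 1.17 ± 0.26 and Hoxa5 at 1.02 ± 0.05 RPKM. The order from Hoxb4 to Hoxd9 is within the spread of the libraries, and 27 genes lay under 1 RPKM. In wild-type cells Hoxc13 was at 2.06 ± 0.40 RPKM, and Hoxd13 (0.71 ± 0.04), Hoxb9 (0.67 ± 0.13) and Hoxb13 (0.64 ± 0.05) followed at lower levels, with spreads that overlapped among these 3.

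**Figure D2:**
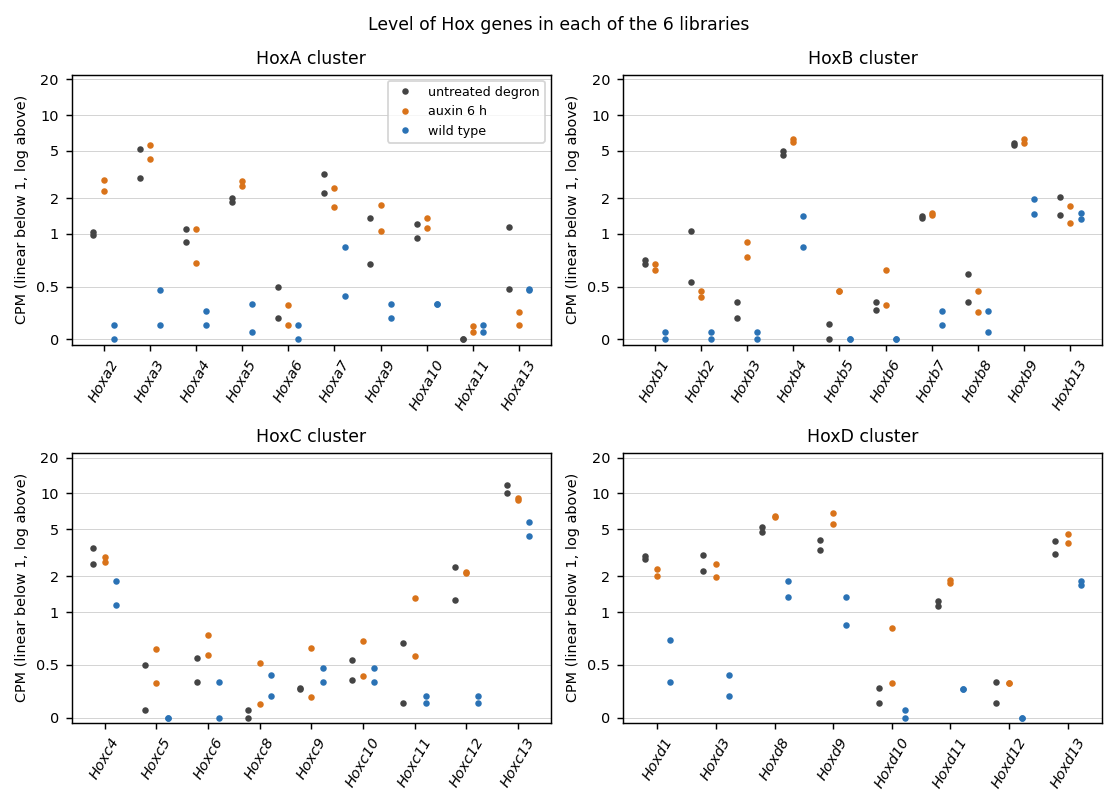
CPM (y axis, linear below 1 and logarithmic above) of 37 of the 38 Hox genes (x axis, in order of gene number) in each of the 6 libraries, 1 panel per cluster, with untreated in grey, auxin-treated in orange and wild type in blue. The wild-type points lie under both untreated points for 30 of the genes drawn and above both for Hoxa11, Hoxc8 and Hoxc9.

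Reads of Hox genes can be shared with their neighbours. In the GENCODE vM21 annotation no 100-base stretch of any Hox transcript occurred in a gene elsewhere, but exons of 9 Hox genes overlap an antisense gene and exons of 8 overlap another gene on the same strand, and whether reads were counted by strand is not given in the sources used here. The share of 100-base stretches also found in another gene was 57.9% for Hoxd3, 49.7% for Hoxb3, 31.2% for Hoxa11, 24.5% for Hoxb2 and 20.7% for Hoxa3, so that these counts are uncertain. Exons of the RNA Hotairm1 in HoxA overlap a gene on the opposite strand, and without strand the reads of such a pair cannot be told apart.

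Auxin treatment for 6 h, which the design uses to ask what changes when Pol II protein is lost, was accompanied by few calls among Hox mRNAs. Of the 38 genes, 24 passed the count filter, and 1 was called by the edgeR quasi-likelihood test at an adjusted p under 0.05, Hoxa2, which was higher, beside 2.56% called higher and 1.64% called lower among all 16128 genes tested. Hoxa2 sets the identity of the second pharyngeal arch. It had 14 and 15 counts in untreated and 44 and 35 in auxin-treated libraries, and these groups did not overlap. The edgeR log2 fold change of Hoxa2 was 1.33 with a standard error of 0.32 and an adjusted p of 0.0371, and the ratio of its summed counts per total was 2.56 with a 95% counting interval of 1.66 to 4.07. Without auxin replicate 1 or 2 the adjusted p of Hoxa2 was 0.271 or 0.117, with DESeq2 it was 0.38, and the call rests on 14 to 44 reads per library. No Hox gene was called lower, and at an unadjusted p under 0.05 edgeR gave 3 higher and 0 lower, while DESeq2 called 0 Hox genes. Of the 3 higher, Hoxb3 reached the filter's minimum in the auxin-treated libraries only, so it could pass only with a higher auxin level. Counts were scaled between libraries, so these changes are relative, and a change in total mRNA per cell would not show.

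The other genes with an unadjusted p under 0.05 were Hoxb3 and Hoxd9. Hoxd9, a limb and trunk gene, had 57 and 49 counts in untreated and 105 and 84 in auxin-treated libraries, which did not overlap, with a log2 fold change of 0.73 ± 0.21 (SE) and an adjusted p of 0.0748. The DESeq2 and edgeR tests did not call it, but without untreated replicate 1 the edgeR adjusted p was 0.00857. Hoxb3 had 5 and 3 counts in untreated and 12 and 14 in auxin-treated libraries (log2 fold change 1.57 ± 0.53, adjusted p 0.119), and 49.7% of its stretches are shared with a neighbour. Its untreated counts were under the filter's minimum, so it was tested through its auxin counts. At the other end Hoxd1, a gene of pain-sensing neurons, had 42 and 41 counts in untreated and 31 and 35 in auxin-treated libraries, at -0.43 ± 0.26 with an adjusted p of 0.393. The remaining tested genes lay between -0.39 (Hoxa7) and 1.15 (Hoxc11), and none was called.

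Hoxa2 was the only anterior gene called after auxin, and no central gene was called. Hoxa3 had 73 and 43 counts in untreated and 66 and 85 in auxin-treated libraries, Hoxd3 31 and 44 against 39 and 30, and Hoxb1 10 and 11 against 11 and 10, all overlapping. Among all genes with a count, 24.9% lay above and 17.4% below without overlap after auxin. Of the 7 tested central genes, 4 had groups that did not overlap, all fitted above 0 by less than 0.5 on the log2 scale. They included Hoxb4, with 70 and 67 against 91 and 95 counts (0.34 ± 0.19, adjusted p 0.356), Hoxd8, with 73 and 69 against 100 and 96 (0.36 ± 0.19, adjusted p 0.309), and Hoxa5, with 28 and 27 against 43 and 38 (0.45 ± 0.27, adjusted p 0.39). The last was Hoxb7, with 20 and 20 counts against 23 and 22, at 0.07 ± 0.33. The groups overlapped for Hoxa4 (13 and 16 against 17 and 11), Hoxa7 (45 and 32 against 26 and 37) and Hoxc4 (49 and 37 against 45 and 40).

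No posterior gene was called after auxin either. Hoxd11, with 16 and 18 counts in untreated and 27 and 28 in auxin-treated libraries, did not overlap (0.59 ± 0.33, adjusted p 0.347), and neither did Hoxb9, with 79 and 85 against 96 and 89 (0.07 ± 0.19). The groups overlapped for Hoxa9 (10 and 20 against 27 and 16), Hoxa10 (17 and 14 against 21 and 17) and Hoxc12 (18 and 35 against 33 and 33). They also overlapped for Hoxb13 (29 and 21 against 19 and 26) and Hoxd13 (56 and 45 against 59 and 69). Among the untested genes, as 2 examples chosen after their values were seen, Hoxb5 had 2 and 0 counts in untreated and 7 and 7 in auxin-treated libraries, and Hoxa13 had 16 and 7 against 4 and 2.

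Over all 38 genes, auxin-treated libraries both lay above both untreated libraries for 14 genes and below for 4, and they overlapped for 20. Among the 25815 genes with a count in these libraries the shares were 24.9% above and 17.4% below. The median log2 fold change of the 24 tested Hox genes was 0.21, against 0.00 for all tested genes. Genes counted as weakly as these also had raised medians. It was 0.21 for the 1510 tested genes with a mean of 10 to 20 counts and 0.13 for the 1883 with 20 to 50, in which ranges the 5 and 10 Hox genes had medians of 0.19 and -0.03. From 50 to 100 counts, however, the 6 Hox genes had a median of 0.31 against 0.07 for all 1483 genes, and the 2 Hox genes with 100 to 300 counts had one of -0.05 against 0.01. With counts scaled to mitochondrial mRNA the median of the Hox genes was 0.05 and that of all genes -0.17, and no Hox gene was called.

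Summed per cluster, HoxA counts were 384 and 365 in untreated and 448 and 482 in auxin-treated libraries, or 26.1 ± 1.61 and 30.5 ± 1.88 CPM (SD, n = 2). HoxD went from 281 and 273 to 379 and 352 counts, or from 19.3 ± 0.89 to 24.0 ± 1.02 CPM, the largest ratio of the clusters at 1.24. HoxB had 16.3 ± 1.01 and 18.4 ± 0.69 CPM, a ratio of 1.13, and HoxC 17.7 ± 0.58 and 17.4 ± 0.45 CPM, a ratio of 0.981. The libraries of the groups did not overlap for HoxA, HoxB and HoxD and overlapped for HoxC. As shares of each library, these sums do not give amounts per cell. With 2 against 2 libraries an exact permutation test of a sum cannot go below p = 0.333, and none was made. The HoxC sum is carried by Hoxc13, with 61.9% of its untreated counts. Hoxc13 had 143 and 172 counts in untreated and 136 and 138 in auxin-treated libraries (-0.30 ± 0.15, adjusted p 0.292), and the other HoxC genes together gave a log2 ratio of 0.31.

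Relative to library totals, untreated degron cells held more Hox mRNA than wild-type cells in the sums of all 4 clusters. Both wild-type libraries lay below both untreated libraries for 10 of 11 HoxA, 8 of 10 HoxB, 5 of 9 HoxC and 8 of 8 HoxD genes. Of all genes with a count, 37.1% lay below in this way. All 38 genes summed were 3.11-fold lower in wild-type cells, and of the 22 genes that passed the filter 21 were called lower and 0 higher, beside 30.7% called lower and 29.9% called higher among 15778 genes tested. At an unadjusted p under 0.05 edgeR gave the same numbers, 21 lower and 0 higher, and DESeq2 called 16 of the 30 Hox genes it gave an adjusted p, all lower. The only tested gene not called was Hoxb13, a gene of prostate and tail development, with 29 and 21 counts in untreated and 22 and 20 in wild-type libraries (log2 fold change -0.24 ± 0.33, adjusted p 0.553). Of the 22 genes, 13 reached the filter's minimum in the untreated libraries only, so they could pass only with a higher untreated level. Of the 9 that reached it in both groups, 8 were called lower.

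The direction was also read without the filter. Over all 38 genes, both wild-type libraries lay below both untreated libraries for 31 genes, above for 3 and overlapped for 4, while among the 24746 genes with a count in these libraries 37.1% lay below and 28.1% above. The genes above were Hoxa11 (0 and 0 counts in untreated, 2 and 1 in wild-type libraries), Hoxc8 (0 and 1 against 3 and 6) and Hoxc9 (4 and 4 against 5 and 7), all at few counts. The median log2 fold change of the 22 tested genes was -1.99, against -0.01 for all tested genes. For the 9 Hox genes with at least 10 counts in every library the median was -1.43, against -0.01 for all genes so fitted. Calls lower were also counted among tested genes with similar read numbers. These counts and the median of the 22 genes share the filter limit given above. In the range of 10 to 20 mean counts 24.8% of 1349 genes and 5 of 5 Hox genes were called lower, and from 20 to 50 it was 29.9% of 1822 genes and 9 of 10 Hox genes. Scaled to mitochondrial mRNA, the median of all genes moved to -2.10 and that of the Hox genes to -4.08. The difference between them was -1.98, as in the first fit. Rescaling whole libraries leaves this difference nearly unchanged by construction, so it is no separate check.

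**Figure D3:**
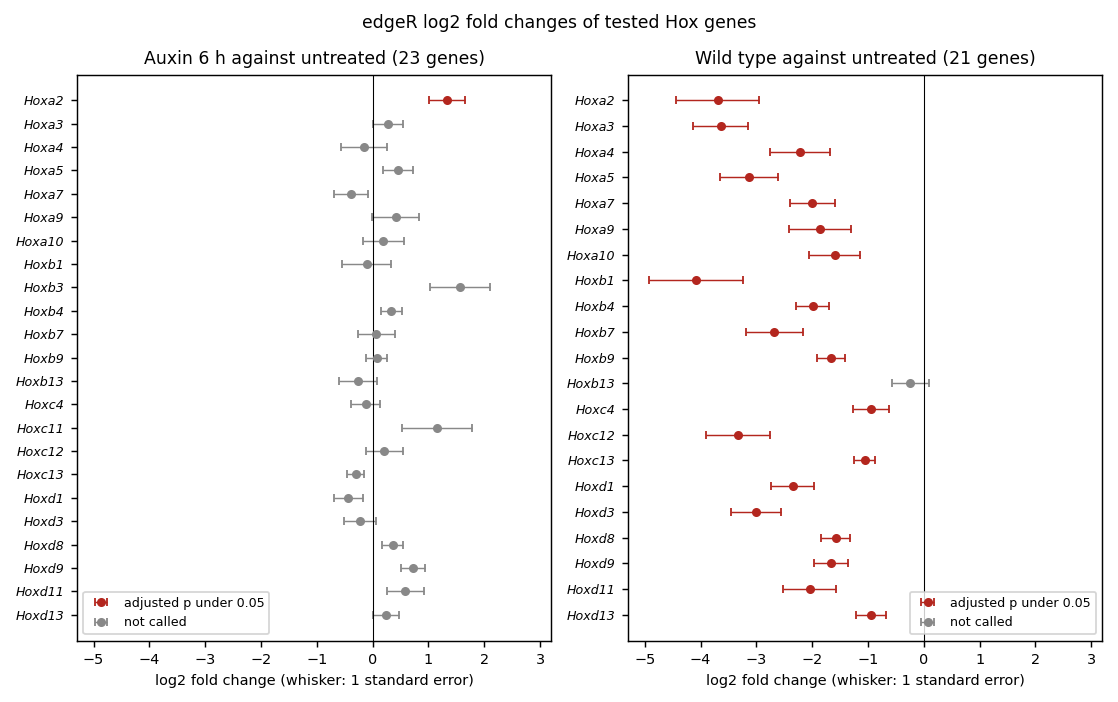
edgeR log2 fold change (x axis, whiskers 1 standard error) of the tested Hox genes drawn (y axis, by cluster and gene number) for auxin-treated against untreated (23 of 24 genes, left) and wild-type against untreated (21 of 22 genes, right), red where the adjusted p was under 0.05. On the left Hoxa2 alone is red, and on the right Hoxb13 alone is grey, with values down to -4.08 for Hoxb1.

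The anterior genes, groups 1 to 3, had the largest summed ratio of the 3 paralogy classes. Their counts summed to 351 and 353 in untreated and to 79 and 90 in wild-type libraries. That is 24.5 ± 0.53 and 5.70 ± 0.50 CPM (SD, n = 2), a 4.31-fold lower level. All 6 tested were called lower, beside 30.7% of all genes tested. In every class such tallies hold genes that reached the filter's minimum in the untreated libraries only, as 13 of the 22 tested did. These could pass only with a higher untreated level. Hoxb1, which marks a single hindbrain segment, had 10 and 11 counts in untreated and 1 and 0 in wild-type libraries. Its summed counts were 21.7-fold lower with a 95% counting interval of 3.49 to 897, and its log2 fold change of -4.08 ± 0.85 depends on the prior count at so few reads. Hoxa2 had 14 and 15 counts against 2 and 0, or 15.0-fold lower with an interval of 3.79 to 130 (-3.69 ± 0.74, adjusted p 0.00119). Both genes were near absent in wild-type cells. Hoxa3, needed for thymus and parathyroid, had 73 and 43 counts against 2 and 7 (-3.64 ± 0.49, adjusted p 6.3e-05). Hoxd3, which shapes the first neck vertebrae, had 31 and 44 against 6 and 3 (-3.01 ± 0.45, adjusted p 0.000131). Hoxd1 had 42 and 41 against 5 and 11 (-2.35 ± 0.38, adjusted p 0.000276). The anterior genes that were not tested were Hoxb2, with 15 and 8 counts against 1 and 0, and Hoxb3, with 5 and 3 against 1 and 0.

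The central genes, groups 4 to 8, summed to 332 and 291 counts in untreated and 85 and 98 in wild-type libraries. That is 21.7 ± 2.58 and 6.17 ± 0.59 CPM, 3.52-fold lower. All 7 tested were called lower, under the same filter limit. Hoxb4, known in blood stem cells, had 70 and 67 counts against 21 and 13 (-1.99 ± 0.29, adjusted p 0.000127), and Hoxd8 had 73 and 69 against 20 and 27 (-1.58 ± 0.26, adjusted p 0.0003). These are the best counted central genes, and their groups did not overlap. Hoxa5, which acts in lung and neck, had 28 and 27 counts against 1 and 5 (-3.13 ± 0.52, adjusted p 0.000325). Hoxb7 had 20 and 20 against 4 and 2 (-2.68 ± 0.50, adjusted p 0.000752). Hoxa4 had 13 and 16 against 2 and 4 (-2.22 ± 0.54, adjusted p 0.00407), which became an adjusted p of 0.0627 without wild-type replicate 1. Counts of Hoxa7, a gene of the thoracic vertebrae, were 45 and 32 against 6 and 13 (-1.995 ± 0.40, adjusted p 0.00125). The smallest called central difference was that of Hoxc4, with 49 and 37 against 27 and 17 (-0.95 ± 0.32, adjusted p 0.0233), and its adjusted p was 0.132 without untreated replicate 1 and 0.194 without wild-type replicate 2. The 7 untested central genes had at most 9 counts in any untreated and 6 in any wild-type library. Hoxb6 and Hoxc5 had 0 counts in both wild-type libraries, which against a floor of 3 counts over the group is at least 3.10-fold and 2.75-fold lower. Hoxb5 had 2 and 0 counts in untreated and 0 and 0 in wild-type libraries and allows no fold.

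The posterior genes, groups 9 to 13, summed to 466 and 487 counts in untreated and 223 and 183 in wild-type libraries, or 33.2 ± 0.18 and 13.7 ± 1.97 CPM, 2.42-fold lower. Of 9 tested, 8 were called lower, under the same filter limit. Hoxc12 had the largest difference of them, with 18 and 35 counts against 2 and 3 (-3.33 ± 0.57, adjusted p 0.000394). Hoxb9, a gene of ribs and mammary gland, had 79 and 85 against 29 and 22 (-1.67 ± 0.25, adjusted p 0.000138), and its paralog Hoxd9 had 57 and 49 against 20 and 13 (-1.67 ± 0.31, adjusted p 0.00069). The third paralog, Hoxa9, known in blood progenitors and leukaemia, had 10 and 20 against 5 and 3 (-1.86 ± 0.56, adjusted p 0.0132), and the adjusted p was 0.148 without untreated replicate 2 and 0.11 without wild-type replicate 2. Hoxd11, which patterns the forearm, had 16 and 18 counts against 4 and 4 (-2.04 ± 0.47, adjusted p 0.00296). Hoxa10, a gene of the uterus, had 17 and 14 against 5 and 5 (-1.60 ± 0.46, adjusted p 0.011), and lost its call without untreated replicate 1 or either wild-type library, at an adjusted p of 0.0744 to 0.0869. Untested posterior genes were Hoxa11, Hoxa13, Hoxc9, Hoxc10, Hoxc11, Hoxd10 and Hoxd12, and Hoxd12, with 2 and 5 counts in untreated and none in wild-type libraries, was at least 2.41-fold lower.

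Genes of group 13, which lie at the posterior end of each cluster, had the smallest summed ratio of the 13 paralogy groups, a comparison chosen after their values were seen. Hoxc13 had 143 and 172 counts in untreated and 85 and 65 in wild-type libraries (-1.06 ± 0.19, adjusted p 0.000522). Hoxd13, the gene of the digits, had 56 and 45 against 27 and 25 (-0.94 ± 0.27, adjusted p 0.011), with an adjusted p of 0.0647 without untreated replicate 1 and 0.0655 without wild-type replicate 2. Hoxa13 was not tested, with 16 and 7 counts against 7 and 7, or 1.70-fold lower with a counting interval from 0.837 to 3.57, and Hoxb13 was not called. Together the 4 genes gave 17.0 ± 0.39 CPM in untreated and 8.70 ± 1.19 in wild-type cells, 1.96-fold lower, while the other 34 Hox genes gave 62.4 ± 2.55 and 16.9 ± 0.30 CPM, 3.70-fold lower. Their share of all Hox counts was 21.4% in untreated and 34.0% in wild-type cells. In group 2 the difference was 17.9-fold, in group 12 12.3-fold, in group 5 11.2-fold and in group 3 10.8-fold, and these differences between groups were not tested.

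By cluster, wild-type sums were 93 and 116 counts in HoxA, 80 and 61 in HoxB, 132 and 110 in HoxC and 82 and 84 in HoxD. HoxA was at 7.05 ± 1.06 CPM, 3.71-fold lower than in untreated cells, HoxD at 5.60 ± 0.07 CPM, 3.45-fold lower, and HoxB at 4.76 ± 0.93 CPM, 3.43-fold lower. HoxC, at 8.16 ± 1.09 CPM, was 2.17-fold lower, and its Hoxc13 made up 62.0% of the wild-type counts. The untreated and wild-type libraries did not overlap for any cluster, nor did their Poisson intervals.

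**Figure D4:**
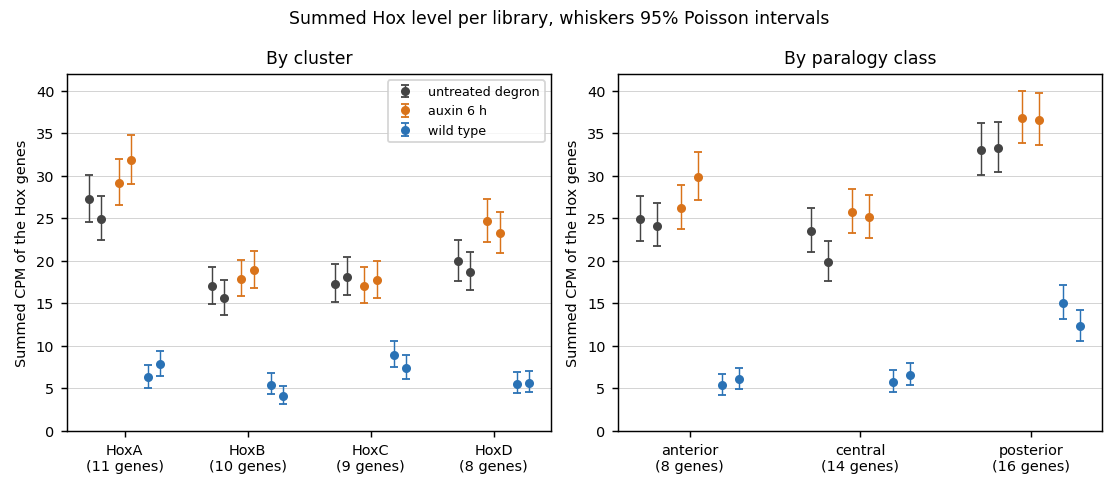
Summed CPM (y axis) of the Hox genes of each cluster (left) and of each paralogy class (right), 1 point per library with its 95% Poisson interval, which covers counting error only, in grey for untreated, orange for auxin-treated and blue for wild type. Every wild-type point and interval lies below the untreated ones, with HoxC and the posterior class highest among the wild-type sums.

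Other transcripts inside the clusters were called lower in wild-type cells too. Of 16 such RNAs found, 6 were tested and 4 called lower, 0 higher. At an unadjusted p under 0.05 edgeR gave 1 higher and 4 lower, and DESeq2 called 0 higher and 4 lower. Beside this and the lists below, 29.9% of all genes tested were called higher and 30.7% lower in wild-type cells. After auxin these shares were 2.56% and 1.64%. In the lists too, a gene that reached the filter's minimum in a single group could pass only with a higher level there. Hotairm1, a long noncoding RNA of HoxA, had 54 and 62 counts in untreated and 10 and 10 in wild-type libraries (-2.51 ± 0.31). Hoxb3os had 20 and 13 against 1 and 1 (-3.88 ± 0.67), Hoxaas3 11 and 20 against 1 and 1 (-3.79 ± 0.71), and Haglr, in HoxD, 13 and 13 against 1 and 2 (-3.004 ± 0.62). All 4 of these RNAs, Hotairm1 by a small margin, reached the filter's minimum in the untreated libraries only. They could pass only with a higher untreated level. Exons of Hoxb3os, Hoxaas3 and Haglr run across those of Hoxb2, Hoxb3, Hoxa3, Hoxa7 and Hoxd3. Halr1 was not called, with 124 and 113 counts against 134 and 161 (0.33 ± 0.16, adjusted p 0.103), nor was the microRNA entry Mir196a-1, with 8 and 5 against 17 and 12 (1.15 ± 0.47, adjusted p 0.0521). In the auxin comparison none of the 6 tested RNAs was called by edgeR or DESeq2, and Hotairm1 had 94 and 92 counts after auxin (0.58 ± 0.20, adjusted p 0.123), 1 of the 2 with an unadjusted p under 0.05, both higher.

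Genes flanking the clusters were called in both directions. Of 24 flanking genes found, 21 were tested against wild type, with 10 called higher, 5 lower and a median log2 fold change of 0.32. Hnrnpa1, a splicing factor gene beside HoxC, was at 1.36 ± 0.07, and the heterochromatin protein genes Cbx3, beyond HoxA, and Cbx1, beyond HoxB, were at 1.49 ± 0.07 and 0.71 ± 0.06, all higher in wild-type cells. Snx10 beyond HoxA was lower (-0.69 ± 0.09) and Atp5g3 beyond HoxD higher (0.45 ± 0.06). After auxin 1 of 20 tested was called, Nfe2l2, the oxidative stress factor, lower at -0.35 ± 0.07 with an adjusted p of 0.0133.

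Among the cofactors that bind with Hox proteins, all 9 TALE genes were tested and 5 were called lower and 2 higher in wild-type cells, with a median of -0.38. Meis2 had 163 and 151 counts in untreated and 27 and 33 in wild-type libraries (-2.37 ± 0.21), and Meis3 146 and 133 against 26 and 22 (-2.52 ± 0.22). Pknox2 was lower too (-1.29 ± 0.26), and Pknox1 was higher (0.40 ± 0.08). Meis1, with 60 and 36 against 71 and 68 counts, was not called. After auxin no TALE gene was called by edgeR or DESeq2, with 2 higher and 1 lower at an unadjusted p under 0.05.

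Of the retinoid pathway and Cdx genes, 17 were tested against wild type, with 9 called lower, 3 higher and a median of -0.64. Aldh1a2, the enzyme that makes retinoic acid in the early embryo, had 110 and 107 counts in untreated and 17 and 28 in wild-type libraries (-2.25 ± 0.26). Stra8, a retinoic acid target of germ cells, was at -1.19 ± 0.08, and the receptor gene Rarg at -0.84 ± 0.07. The receptor gene Rara and the binding protein gene Crabp1 were higher in wild-type cells, at 1.30 ± 0.08 and 1.45 ± 0.18. After auxin none of the 19 tested was called by edgeR or DESeq2, with 1 higher and 1 lower at an unadjusted p under 0.05.

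Homeobox genes outside the Hox clusters were called in both directions. Of 104 such genes 59 were tested, and 26 were called lower and 11 higher, with a median of -0.68. The tally and the median share the filter limit, since some genes reached the minimum in a single group. Emx2, called lower, had 24 and 23 counts in untreated and 6 and 6 in wild-type libraries, and Barhl2, called higher, 1 and 4 against 14 and 12. Lmx1a, a gene of the neural roof plate, had 78 and 51 counts against 11 and 6 (-2.90 ± 0.39) and Prrx2 was at -1.54 ± 0.12. The head gene Otx2, expressed anterior to the Hox domain in the embryo, had 23 and 32 counts in untreated and 141 and 158 in wild-type libraries (2.45 ± 0.22), and Gbx2 had 70 and 91 against 338 and 351 (2.11 ± 0.14). After auxin 3 of 63 were called, all higher, among them Uncx and Tlx3. Uncx had 3 and 4 counts in untreated and 24 and 27 in auxin-treated libraries (2.72 ± 0.47, adjusted p 0.00776), and Tlx3 32 and 29 against 65 and 66 (1.00 ± 0.24). Uncx reached the filter's minimum in the auxin-treated libraries only, so it could pass only with a higher auxin level. DESeq2 called none of the 63.

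**Figure D5:**
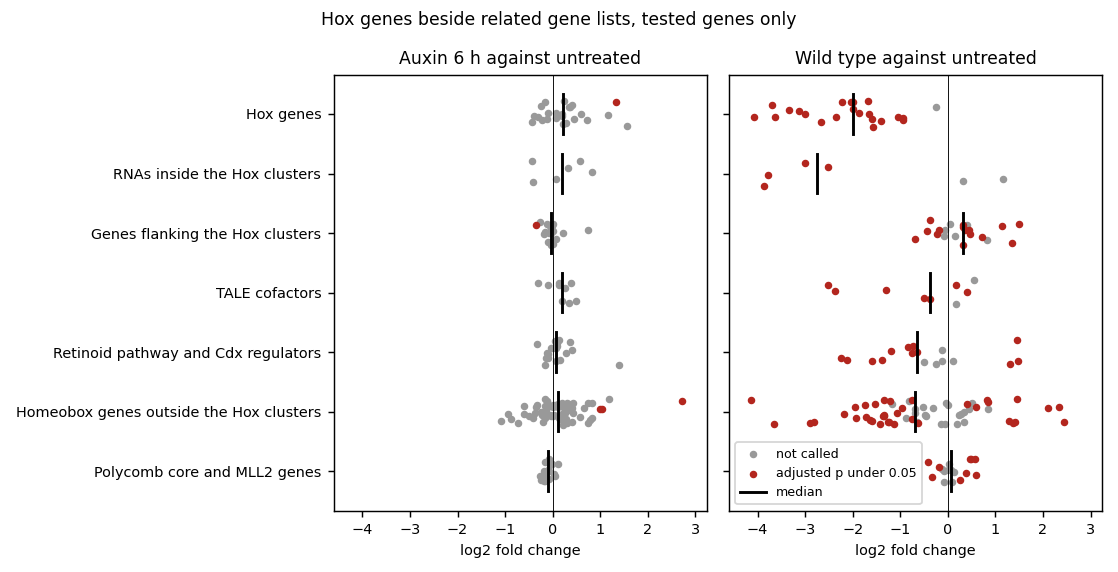
log2 fold change (x axis) of each tested gene of the Hox clusters and of 6 related lists (y axis), for auxin-treated (left) and wild-type (right) against untreated cells, red where the adjusted p was under 0.05, with a black bar at the median. On the right the medians are -1.99 for Hox genes, -2.76 for RNAs inside the clusters and 0.32 for flanking genes. Genes that reached the filter's minimum in a single group enter these medians only with a higher level there.

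Genes of the Polycomb and MLL2 complexes, which write or remove the repressive and active histone marks at Hox promoters, were all tested. Of 17, 6 were called higher and 3 lower in wild-type cells, beside 29.9% and 30.7% of all genes tested, with a median of 0.06. Suz12 (0.58 ± 0.08), Jarid2 (0.60 ± 0.09), Ezh2 (0.48 ± 0.07) and Wdr5 (0.46 ± 0.07) were higher, and the H3K27 demethylase gene Kdm6b was lower (-0.42 ± 0.06). After auxin none of the 17 was called by edgeR or DESeq2, and 6 were lower and 0 higher at an unadjusted p under 0.05.

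Markers of other cell states also differed between untreated and wild-type cells, with calls in both directions within each list. Of 10 pluripotency markers 7 were called higher and 1 lower in wild-type cells, among them Tdgf1 (1.14 ± 0.06), Utf1 (1.10 ± 0.06) and Klf4 (0.89 ± 0.07), while Pou5f1 was not called (0.02 ± 0.08). Their summed level was 7282 and 7351 CPM in wild-type and 4439 and 4962 CPM in untreated libraries. Of 10 posterior embryo markers 6 were tested, 3 called lower and 2 higher. T, the primitive streak and mesoderm factor, had 163 and 267 counts in untreated and 6 and 8 in wild-type libraries (-4.90 ± 0.35), and Fgf8 42 and 91 against 8 and 8 (-3.02 ± 0.45), while Eomes was higher (1.02 ± 0.19). T and Fgf8 reached the filter's minimum in the untreated libraries only, so they could pass only with a higher untreated level. Of 19 feeder fibroblast markers 16 were tested, 8 called lower and 5 higher. Tagln (-2.40 ± 0.09), Acta2 (-1.51 ± 0.08), Fbn1 (-1.06 ± 0.11) and Col1a2 (-0.66 ± 0.08) were lower. Pdgfra was higher (1.76 ± 0.22) and Col1a1 was not called (0.01 ± 0.07). The feeder markers summed to 350 and 352 CPM in wild-type and to 806 and 920 CPM in untreated libraries. Most of this difference came from Tagln, at 455 CPM in untreated and 82.5 CPM in wild-type cells, and Acta2, at 131.5 and 44.5 CPM. Col1a1 stood at 65.5 and 63.3 CPM and Col1a2 at 67.8 and 41.1 CPM, and the number of feeder cells was not measured. The part of these cells or states in the Hox difference was not tested. After auxin 4 pluripotency markers were lower and 0 higher, Zfp42, Sox2, Nanog and Esrrb, with a list median of -0.25 and 7 lower and 0 higher at an unadjusted p under 0.05, and DESeq2 called 4 lower. Of the feeder markers Col1a2 was called higher (0.36 ± 0.08), no posterior marker was called by edgeR or DESeq2 or had an unadjusted p under 0.05, and their part in the auxin values was not tested.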

How the data were processed

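PolyA RNA-Seq libraries were sequenced as 150-bp pairs. Per the paper and the submitters' processing notes, the authors aligned them to mm10 with HISAT2 2.1.0 and counted them on GENCODE genes with salmon and HTSeq, and they deposited whole-number read counts of 39017 genes, not normalized, with the wild-type libraries in a table of their own. The annotation release and the strand setting are not given in the sources used here. The columns of the authors' own comparison by DESeq2 (fold changes and p-values) and 2 per-sample columns that match no sample were not used.

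Counts of both tables were joined by gene ID. Each comparison was fitted on its own 4 libraries with edgeR 4.0.16 in R 4.3.3 (glmQLFit, glmQLFTest, TMM, filterByExpr with a minimum count of 10, prior count 0.125), and a gene was called at a Benjamini-Hochberg adjusted p under 0.05 over all genes tested. The procedure was checked on simulated counts. Sums of members got no test. CPM used library totals, so that all levels and fold changes are relative to the library and not per cell. Replicates of every group differed by more than sampling noise and were kept apart. Library totals lay between 14094022 and 15358714 counts, and CPM are counts per 1000000, so that Hox genes near 1 CPM carry a large counting error. Intervals (95%, exact Poisson or Clopper-Pearson) and the floor of 3 counts cover counting error only. Coordinates and lengths came from GENCODE vM21 and start-site windows from RefSeq on GRCm38.p6, matched by gene ID and symbol. Lists were matched by symbol or, for older symbols, by gene ID.

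Values of every library are given for members with a mean of at least 10 counts over the 6 libraries or a call in either comparison (22 genes, of which not all are reported here), and for lists the 5 called genes with the smallest p, and members outside this rule are named by ranges or where a count is 5 or fewer. The members, lists and tests were chosen with earlier results of these data known. The alternatives were DESeq2 1.42.0 and its size factors, library totals, mitochondrial mRNA scaling, no filter, 10 counts in every library, robust dispersion, a replicate block, a joint fit of all 3 groups, a prior count of 5, other denominators of the sums, sums without the best counted member, and leaving out each library.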

Additional observations from a re-analysis of the deposited data

How the results depend on the processing

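The median and the 4 sums of wild-type against untreated cells stayed below 0 under every alternative run. Hox genes called lower numbered 21 in the reported fit and 8 of 9 fitted when at least 10 counts were required in every library, 16 with DESeq2, 20 with no filter, 22 with mitochondrial scaling or all 3 groups in one fit and 17 to 20 with 1 library left out, where the lone library is assumed to vary like the other group. The median log2 fold change was -4.08 with mitochondrial scaling, -1.43 with 10 counts in every library, -1.46 with a prior count of 5 and -1.96 to -1.80 with 1 library left out. The log2 ratios of the summed clusters with a mitochondrial denominator were -3.93 (HoxA), -3.82 (HoxB), -3.16 (HoxC) and -3.83 (HoxD), that of HoxA without 1 of its members was -2.39, and with 1 library left out they ran from -2.05 to -1.74, from -1.99 to -1.59, from -1.26 to -0.99 and from -1.83 to -1.74. For auxin, 0 Hox genes were called with mitochondrial scaling, no filter or DESeq2, 2 with the replicate block and 0 to 2 with 1 library left out, and the median was 0.049 with mitochondrial scaling and 0.049 to 0.34 with 1 library left out. The auxin log2 ratios with a mitochondrial denominator were 0.032 (HoxA), -0.018 (HoxB), -0.21 (HoxC) and 0.13 (HoxD), HoxC without Hoxc13 was at 0.31, and with 1 library left out they ran from 0.16 to 0.29, from 0.11 to 0.24, from -0.06 to 0.01 and from 0.27 to 0.36. By construction, mitochondrial scaling moves all values by the difference in mitochondrial mRNA, which stood at 3415 and 4007 CPM in untreated, 3988 and 4410 CPM in auxin-treated and 15298 and 15003 CPM in wild-type libraries. The cause of the other changes was not tested. Signs of single genes turned only for uncalled values. After auxin these were Hoxb7 (-0.096) and Hoxb9 (-0.091) with mitochondrial scaling and, with 1 library left out, Hoxa3 (-0.069 to 0.71), Hoxa4 (-0.48 to 0.11), Hoxb13 (-0.52 to 0.0020), Hoxc4 (-0.32 to 0.10), Hoxc12 (-0.18 to 0.75) and Hoxd3 (-0.45 to 0.036), and against wild type Hoxb13 (-0.47 to 0.020). Replicate numbers did not pair the libraries (correlation of deviations 0.07 and -0.03), and the replicate block called 2 Hox genes after auxin, adding Hoxd9 (adjusted p 0.018), and 21 against wild type. Few reads limit most members, and a change of a gene with under 10 counts would not be detectable at this depth unless it was large.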
